A study of Mus musculus with 18 samples.

Results

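The nuclear-encoded subunits of oxidative phosphorylation were followed in whole epididymal white adipose tissue (eWAT), the fat pad that lies against the epididymis of male mice. The members were chosen by symbol from the GENCODE M21 annotation of GRCm38: protein-coding genes named as Nduf subunits of complex I, as Sdha to Sdhd of complex II, as Uqcr genes or Cyc1 of complex III, as Cox4 to Cox8 genes of complex IV, or as Atp5 genes of complex V. This rule used no measured value. It gave 82 of the 16452 genes in the count table, of which 37 belong to complex I, 4 to complex II, 9 to complex III, 15 to complex IV and 17 to complex V. The annotation holds 86 protein-coding entries that fit the rule, and Cox6a2, Cox7b2, Cox8c and a second identifier of Atp5o are not analysed here. The names carry older assignments: Ndufa4 is counted here with complex I although its protein is now placed in complex IV, Cox7a2l is a factor that joins complexes into supercomplexes, and Atp5s is an ATP synthase-related protein rather than a structural subunit.

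Oxidative phosphorylation is the last step of fuel use in mitochondria. Complex I takes electrons from NADH and complex II from succinate, ubiquinone carries them to complex III and cytochrome c to complex IV, where they reduce oxygen. The proton gradient built on the way drives ATP synthase, called complex V. Most subunits are encoded in the nucleus and imported, while the catalytic membrane subunits of complexes I, III, IV and V come partly from the mitochondrial genome. White fat cells hold fewer mitochondria than brown fat cells and use their ATP for lipid synthesis, storage and secretion.

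The libraries are RNA sequencing of eWAT from male wild-type C57BL/6 mice of a generation called Fm. By the labels, they were sired from zygotes that had been injected with miR-let-7d, with miR-let-7e or with a negative control, and the treatment label of every group, controls included, carries IVF, so injection and IVF are common to all groups. All groups ate chow until week 6 and then a diet labelled LFD until week 15, and the age label of every sample reads 24 weeks, so the labels leave the age at collection unclear. The series title links let-7 to mitochondrial function in fathers and to inherited metabolic decline, and the comparisons here ask whether subunit transcripts differ in the fat of the offspring. There were 5 control libraries (replicates 1, 2, 3, 4 and 6; replicate 5 of the labels is not analysed here), 6 let-7d libraries and 6 let-7e libraries. Sample identifiers form an early series, with replicates 1 and 2 of let-7d and of let-7e, and a late series with the other 13 libraries, all 5 controls included. The labels do not say whether mice of a group share a father, litter or injection day, so p-values measure only the spread between these libraries.

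The injected microRNAs are near copies of each other. Both are shown from RefSeq (GRCm38.p6), 5′ to 3′, with the seed, bases 2 to 8, in capitals, because the seed is the part that pairs with target messenger RNAs. They are encoded at chr13:48536078-48536099 on the minus strand and at chr17:17830366-17830387 on the plus strand.
mmu-let-7d-5p: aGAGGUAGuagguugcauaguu
mmu-let-7e-5p: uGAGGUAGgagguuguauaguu
The mature forms are 22 bases long, share the seed GAGGUAG and differ at 3 positions. Their seed match, CTACCTC, occurred in the annotated 3′ UTR of 1 of the 82 members (1.22%), against 1313 of 14065 measured protein-coding genes with a 3′ UTR (9.34%). The 3′ UTRs of the members are short, with a median of 160.5 bases against 1003 bases over those genes. The 1 member was Cox7b, an accessory subunit of complex IV on chromosome X, with a single match in its 627-base 3′ UTR, in capitals here.
Cox7b site: atgcttactgccctCTACCTCgt
Cox7b stood at 144.4, 87.21, 100.9, 110.3 and 69.09 CPM (read counts scaled to library size with TMM factors) in controls 1, 2, 3, 4 and 6. It ran from 73.53 to 121.4 CPM in let-7d (median 88.28) and from 74.55 to 106.6 CPM in let-7e (median 84.45). The ranges overlapped in every pair of groups. The edgeR log2 fold changes were -0.14 (SE 0.174, adjusted p = 0.790) for let-7d and -0.22 (SE 0.178, adjusted p = 0.690) for let-7e against control.

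Promoters are shown because the members moved together from library to library, as described further on. RefSeq promoters (250 bases before to 50 after the start, GRCm38.p6) were matched for 68 members. The motif of NRF1, a transcription factor known for its sites in respiratory genes, was searched as GCGCNTGCG on both strands. Counted by gene, with a match in any of its promoters, it occurred in 23 of the 68 members (33.82%). It occurred in 13.74% of 11827 measured genes and in 7.12% of all 27025 genes with a promoter. With a further C at the end, the letters first searched, it occurred in 17 of the 68 (25.0%) and in 10.26% of measured genes. Of the 23, 9 belonged to complex I, 2 to complex II, 3 to complex III, 1 to complex IV and 8 to complex V. A window of 80 bases upstream of the start is given for a gene of complexes I, II, IV and V each, on the strand of the gene, with the NRF1 letters in capitals: Ndufa11 from chr17:56717667-56717746, Sdha from chr13:74350293-74350372, Cox6a1 from chr5:115349076-115349155 and Atp5h from chr11:115420015-115420094.
Ndufa11: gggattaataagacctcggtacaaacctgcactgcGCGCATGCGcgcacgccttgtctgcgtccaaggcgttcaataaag
Sdha: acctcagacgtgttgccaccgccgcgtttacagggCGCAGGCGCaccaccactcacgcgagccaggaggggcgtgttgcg
Cox6a1: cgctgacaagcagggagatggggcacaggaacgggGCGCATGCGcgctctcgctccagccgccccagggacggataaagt
Atp5h: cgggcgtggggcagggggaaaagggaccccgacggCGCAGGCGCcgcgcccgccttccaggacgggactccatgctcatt
The ETS letters CCGGAAGT, read by GABP, occurred in 5 of the 68 (7.35%) against 8.24% of measured genes. The YY1 letters AAGATGGCG occurred in 7 (10.29%) against 3.13%, and with a further G in 5 against 2.08%. Of the 7, 5 were the complex I genes Ndufa9, Ndufc1, Ndufs4, Ndufs6 and Ndufs7, and 2 were Atp5j and Atp5j2. The ERRα letters TCAAGGTCA occurred in 2 (2.94%) against 0.35%, the 2 being Atp5g3 and Sdhd. In Atp5g3, Atp5h, Ndufs6, Sdhd and Uqcr11, which matched NRF1 and a further motif, the matches did not overlap. A match is a description of letters, not a site shown to be bound.

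Total counts ran from 12717365 to 28972306 per library, and the lowest count of any member in a library was 26, for Cox6b2, so counting error bears mainly on the rare variants. Values are CPM scaled by TMM unless stated. Intervals are not given for single libraries, since the spread between mice sets the error. Adipocyte markers were abundant, as the tissue label implies: 10 of 10 adipocyte markers were measured, with summed levels of 25510 to 48190 CPM in controls, 22780 to 44960 CPM in let-7d and 37630 to 49370 CPM in let-7e. Transcripts of neighbouring organs stood high in some libraries: in control 3 (4 of 8 epididymis and vas deferens markers measured, summed 17460 CPM, and 8 of 8 smooth muscle markers, summed 14430 CPM), in control 6 (8 of 8 spermatid markers, summed 1531 CPM) and in let-7d 1 (8 of 8 epithelium markers, summed 621.6 CPM). Akr1b7 (14040 CPM), Crisp1 (2927 CPM) and Spink8 (493.9 CPM) were the epididymis and vas deferens markers that stood high in control 3. Adam7, the other marker measured, was at 0.233 CPM there and highest in let-7d 1, at 17.58 CPM. The epithelium markers were also high in let-7d 5. Counts and medians over the members and the pathway lists are given without these 4 libraries as well, Atp5g1 without control 3 and Cox6b2 without control 6.

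Levels of different genes are compared per kilobase of the principal transcript. ATP synthase and cytochrome c oxidase held the most abundant transcripts. Atp5b, the catalytic beta subunit of ATP synthase, averaged 957.4 CPM per kilobase over the 17 libraries, and Cox8a, a small subunit of complex IV, 910.6 CPM per kilobase. Next came Cox6a1, at 880.7 CPM per kilobase, and Cox4i1, an early-assembling regulatory subunit, at 813.1 CPM per kilobase. Complexes I, II and III had lower maxima: Ndufa4 at 368.2, Sdha, the flavoprotein of succinate dehydrogenase, at 220.8, and Uqcr11, a small accessory subunit of complex III, at 335.9 CPM per kilobase. Median levels were closer together, at 113.3 CPM per kilobase for complex I, 130.5 for complex II, 160.8 for complex III, 137.2 for complex IV and 158.5 for complex V.

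The lowest members were Ndufb2 (12.34 CPM per kilobase) in complex I, Sdhc, a membrane anchor (58.13), in complex II, Uqcrc2, a core protein (97.33), in complex III, Cox4i2, the oxygen-responsive alternative to Cox4i1 (7.066), in complex IV and Atp5s (5.897) in complex V. Members of complex II and III spanned a narrow range. Complexes IV and V spanned the widest ranges of the 5, and both hold tissue variants or duplicated genes. Annotated length matters for some of these: the principal transcript of Ndufb2 is 4371 bases and that of Atp5g1 4715 bases, mostly 3′ UTR, and a long model lowers a level per kilobase. For 11 members another gene carries a near-identical copy (at least 95% identity over at least 50% of the transcript), so that reads may be shared: Atp5l (9 copies), Atp5h and Uqcrb (3 each), Atp5g2 (2), and Atp5c1, Atp5k, Atp5o, Cox7c, Ndufb11, Ndufs3 and Ndufs6 (1 each).

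**Figure D1:**
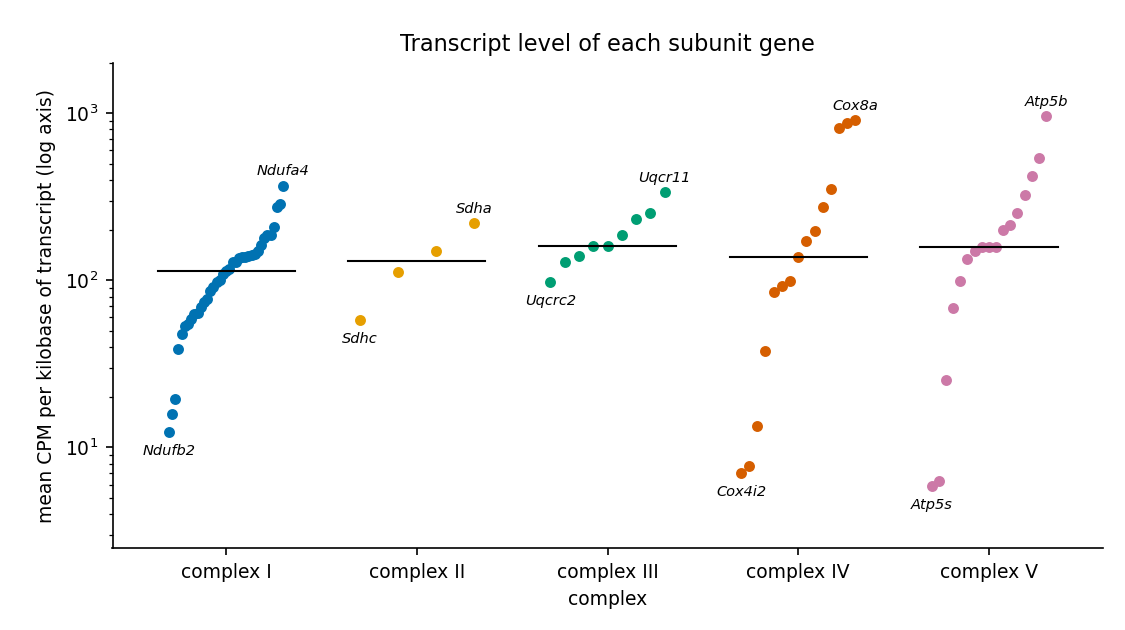
Mean level of each of the 82 genes over 17 libraries, in CPM per kilobase of principal transcript on a log axis, by complex; each point is a gene and the horizontal line is the median of the complex. Atp5b (957.4) and Cox8a (910.6) stand highest, and Atp5s (5.897) and Cox4i2 (7.066) lowest.

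The members went up and down together from mouse to mouse. In control 1, 81 of 82 stood above their own mean over the 17 libraries, by a median of 0.52 on the log2 CPM scale (1.44-fold). In let-7d 4, 80 of 82 stood above, by a median of 0.35, and in control 4, 79 of 82 stood above, by 0.21. The opposite was seen in let-7d 1, where 79 of 82 stood below by a median of 0.38 log2 units (a ratio of 0.769), and in let-7e 2 and let-7e 3, with 79 and 80 below. TMM scaling holds the bulk of the genes level between libraries, so these are shifts of the members relative to the genes at large. In bulk tissue, a lower share of cells that hold many mitochondria and less RNA per cell cannot be told apart.

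The highest value of a member fell in control 1 for 66 of 82 members (80.49%), against 10.28% of all genes, and in let-7d 4 for 12. Of the other 4, Cox6b2 was highest in control 6, Cox4i2 in control 2, Atp5g1 in control 3 and Atp5s in let-7d 2. The lowest value fell in let-7d 1 for 59 members (71.95%), against 14.82% of all genes, and in control 6 for 13. So the extremes of most members came from a mouse of the control group at the top and a mouse of the let-7d group at the bottom. The median SD of log2 CPM over the 17 libraries was 0.24 for members and 0.33 for all genes, or 0.23 for genes of at least 10 CPM. Only Cox6b2 (1.03), Cox8b (0.98) and Cox7a1 (0.58) exceeded 0.5, and all are tissue variants of complex IV. The steadiest member was Cox7a2l, with an SD of 0.12.

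**Figure D2:**
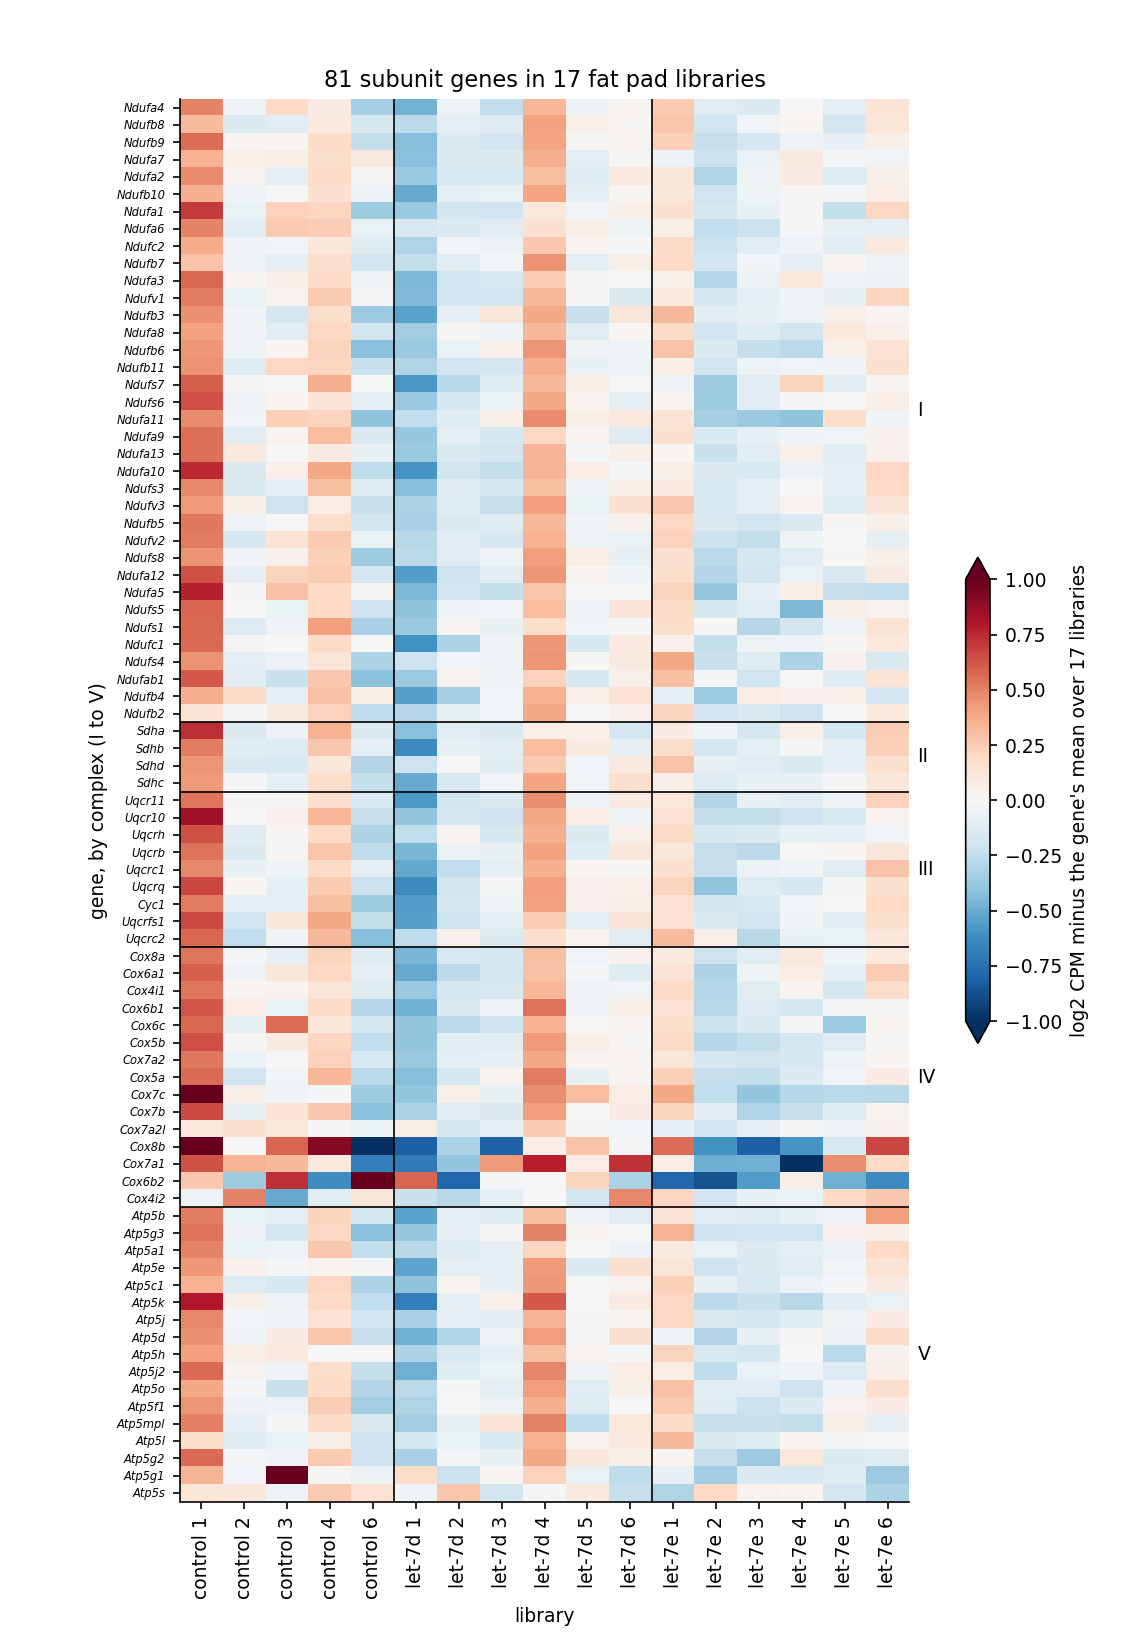
Each row is 1 of 81 subunit genes, ordered by complex and then by level, and each column 1 of 17 libraries; colour gives log2 CPM minus the gene's mean over the 17 libraries, from blue (lower) to red (higher), saturating at 1. Control 1 and let-7d 4 are red in nearly every row (81 and 80 of all 82 members above their mean) and let-7d 1 blue (79 below), and Cox8b, Cox7a1, Cox6b2 and Cox4i2 follow patterns of their own.

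All 5 complexes took part in these shifts. In control 1 the mean log2 CPM of a complex exceeded its mean over libraries by 0.50 for complex I, 0.53 for complex II, 0.61 for complex III, 0.66 for complex IV and 0.44 for complex V. In let-7d 1 the deviations were -0.39, -0.44, -0.46, -0.35 and -0.33, in the same order. In let-7d 4 they were 0.34, 0.25, 0.36, 0.34 and 0.37. Within a library the complexes differed from each other by 0.05 (let-7e 5) to 0.24 (control 3). The mean over all members deviated by 0.53 in control 1 and by -0.38 in let-7d 1, farther apart than the complexes within any library. Complex IV was at an end of the 5 in most libraries: the highest in controls 1, 2, 3 and 6 and in let-7d 5 and 6, and the lowest in control 4, in let-7d 2 and 3 and in let-7e 1, 2, 3 and 4. Its mean weighs every gene alike, including rare tissue variants with patterns of their own. Of these, Cox8b was far higher in control 1 and Cox6b2 in control 6 than in any other library. The place of complex IV without these variants was not tested.

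**Figure D3:**
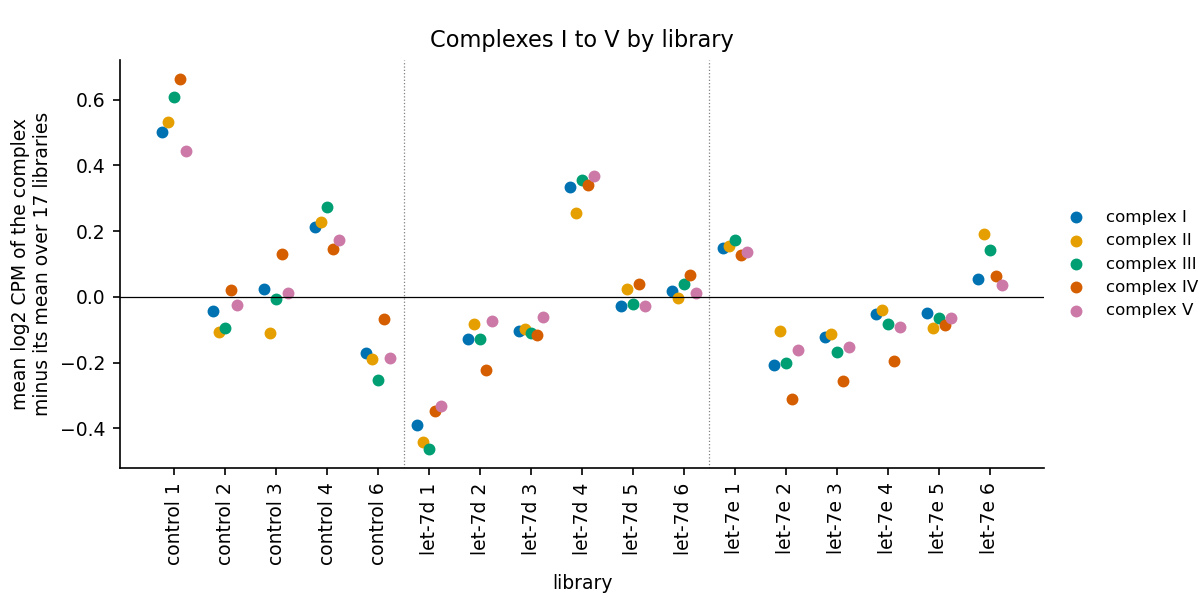
Mean log2 CPM of the members of each complex in each of 17 libraries, minus the mean of that complex over the 17 libraries; colours mark complexes and dotted lines part the groups. The 5 complexes lie close together within a library and shift jointly, from 0.44 to 0.66 in control 1 down to between -0.46 and -0.33 in let-7d 1.

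By group, the mean log2 CPM of all members was 6.82 ± 0.269 (SD, n = 5) in controls, 6.66 ± 0.236 (SD, n = 6) in let-7d and 6.65 ± 0.135 (SD, n = 6) in let-7e. The control values were 7.24, 6.67, 6.74, 6.91 and 6.54 for replicates 1, 2, 3, 4 and 6. The let-7d values ran from 6.32 to 7.05 with a median of 6.65, and the let-7e values from 6.49 to 6.85 with a median of 6.63. All 3 ranges overlapped, and the difference between group means (-0.16 for either let-7 group against control) was under the SD of the controls. Among the late libraries alone it was -0.05 for let-7d and -0.17 for let-7e (4 libraries each against 5 controls). Without the 4 libraries named above it was -0.20 and -0.28, with only controls 1, 2 and 4 kept.

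With let-7d against control, the 11 core members described here, which carry the catalytic and electron-transfer steps or form the frame of their complex, overlapped the controls in every case. So did the other members: none of the 82 lay wholly below or wholly above the controls with let-7d, as 0.34% and 0.176% of all genes did. Sdha, on chromosome 13 (bases 74322254 to 74350280, GRCm38), was at 1052, 569.1, 604.3, 801 and 570.8 CPM in controls 1, 2, 3, 4 and 6, and ran from 470.9 to 653.5 CPM in let-7d (median 577.7). The controls 1 and 4 were high, and the other 3 lay within the let-7d range. Its edgeR log2 fold change was -0.28 (SE 0.163, adjusted p = 0.563), the lowest of the 11, and -0.10 without control 1. Uqcrfs1, the Rieske iron-sulphur protein of complex III (chromosome 13, bases 30540308 to 30545362), was at 270.8, 149.3, 185.9, 224.8 and 145.6 CPM in the controls and from 117.9 to 204.3 CPM in let-7d (median 161), a log2 fold change of -0.21 (SE 0.167), and -0.05 without control 1.

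Cox4i1 (chromosome 8, bases 120668222 to 120674207) was at 892.1, 621.9, 630.4, 669.1 and 563.9 CPM in the controls and from 476.1 to 772.9 CPM in let-7d (median 576.2). The groups overlapped, with a log2 fold change of -0.14 (SE 0.143), which was -0.02 without control 1 and -0.22 without let-7d 4. Atp5b (chromosome 10, bases 128083273 to 128090391) was at 2579, 1723, 1702, 2105 and 1599 CPM in the controls and from 1246 to 2230 CPM in let-7d (median 1688), a log2 fold change of -0.13 (SE 0.162). For Atp5b, too, control 1 was the highest library and let-7d 1 the lowest. The other 7 core members (Ndufs1, Ndufv1, Sdhb, Uqcrc2, Cyc1, Cox5a and Atp5a1) had log2 fold changes from -0.20 (Ndufv1, the NADH-binding subunit) to -0.04 (Cyc1, cytochrome c1), each at an edgeR adjusted p of 0.602 or more.

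No member was called with let-7d at an edgeR adjusted p under 0.05, where 0 of 16452 genes (0%) were called. At an unadjusted edgeR p under 0.05 there were 2 members, Cox6b2 and Cox8b, against 1676 genes (10.2%). With limma-voom 18 of 82 members had an unadjusted p under 0.05, against 2212 of 16452 genes. DESeq2 called 10 genes (0.0632%) and limma-voom 0, none of them members. A log2 fold change below 0 was found for 74 of 82 members against 57.5% of all genes, with a median of -0.113 against -0.039. Per complex, 33 of 37 members of complex I were below 0 (median -0.126), 4 of 4 of complex II (-0.062), 9 of 9 of complex III (-0.112), 13 of 15 of complex IV (-0.127) and 15 of 17 of complex V (-0.066). Of the 82, 80 differed by less than 2-fold. This direction rested on control 1: without it 31 of 82 members were below 0 and the median was 0.016, against 8884 of 16452 genes. Single let-7d libraries moved its size: without let-7d 1, 64 of 82 were below 0 (median -0.061), and without let-7d 4, 80 of 82 (median -0.192). Within the late libraries 55 of 82 members were below 0 (median -0.042), against 9062 of 16452 genes. Without the 4 libraries with transcripts of neighbouring organs or epithelium 79 of 82 were (median -0.164), against 7975 of 16452 genes. That setting keeps controls 1, 2 and 4 and drops control 6, the control lowest in the subunits. It gives control 1 more weight, so it cannot show whether the direction holds apart from control 1.

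With let-7e against control the values were similar in size. Let-7e and let-7d were compared with the same 5 controls, so the directions are not independent. Sdha ran from 556 to 745.1 CPM in let-7e (median 635.1), a log2 fold change of -0.15 (SE 0.165). Uqcrfs1 ran from 150.2 to 193.6 CPM (median 163.6), with -0.14 (SE 0.170). The let-7e range of Uqcrfs1 lay inside that of the controls, and that of Sdha reached a little below it. Cox4i1 ran from 505.1 to 703 CPM (median 596.6), with -0.10 (SE 0.145). Atp5b ran from 1658 to 2418 CPM (median 1733), with 0.004 (SE 0.164). Let-7e 6 was the highest let-7e library for both Sdha and Atp5b.

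No member was called with let-7e by edgeR, where 0 of 16452 genes (0%) were called. At an unadjusted edgeR p under 0.05 there were 3 members (Cox6b2, Atp5g1 and Ndufa6) against 1729 genes (10.5%). With limma-voom 26 of 82 members had an unadjusted p under 0.05, against 1788 of 16452 genes. DESeq2 called 15 genes (0.0947%), none a member, and limma-voom 0. Log2 fold changes were below 0 for 75 of 82 members against 58.1% of all genes, with a median of -0.103 against -0.039. Per complex these were 34 of 37 (median -0.110), 4 of 4 (-0.020), 9 of 9 (-0.096), 14 of 15 (-0.153) and 14 of 17 (-0.082) for complexes I to V. Here too the direction rested on control 1: without it 30 of 82 members were below 0, with a median of 0.028, against 8826 of 16452 genes. Only complex IV then kept a median below 0, at -0.028. The count below 0 was 80 of 82 (median -0.146) within the late libraries, which hold control 1, against 9215 of 16452 genes. Without the 4 libraries named above it was 81 of 82 (median -0.234), against 7670 of 16452 genes, again with more weight on control 1.

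**Figure D4:**
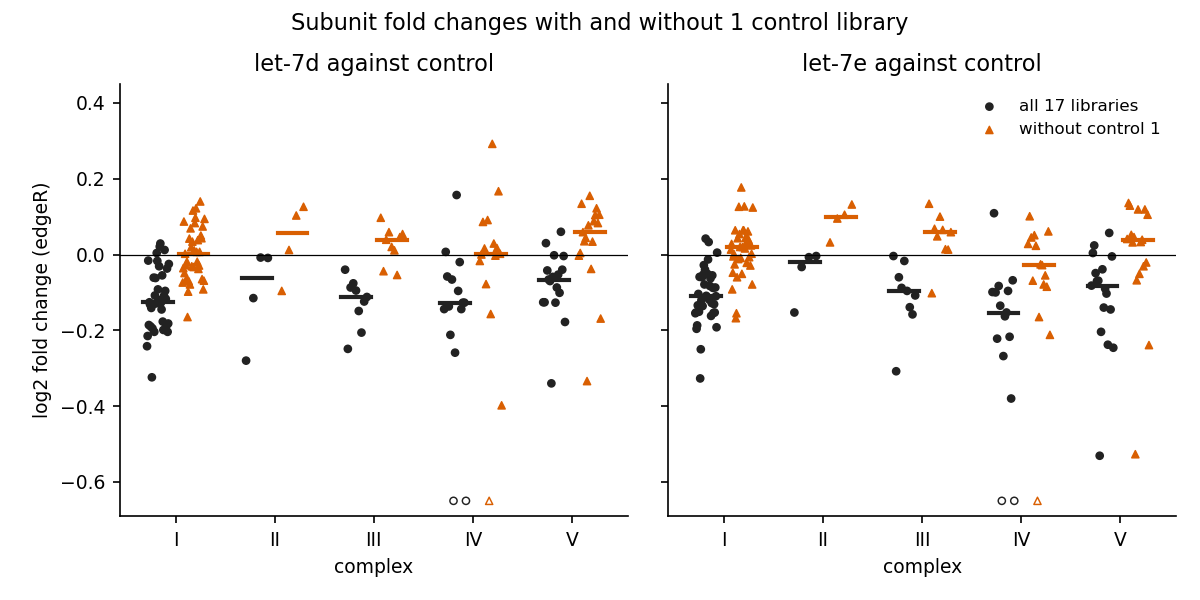
edgeR log2 fold change of each of the 82 genes by complex, for let-7d against control (left) and let-7e against control (right), with all 17 libraries (black circles) and without control 1 (orange triangles); bars are medians, and open symbols at the lower edge mark complex IV members below the axis. The black medians lie below 0 in all 5 complexes of both panels, and without control 1 they move up, to between 0.002 and 0.059 for let-7d and between -0.028 and 0.10 for let-7e.

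Ndufa6 and Ndufa5, accessory subunits of the matrix arm of complex I, had the smallest unadjusted p-values in that complex with either microRNA and were picked after their values were seen. Ndufa6 (chromosome 15, bases 82350140 to 82354322) was at 123.1, 80.81, 104.8, 103.4 and 83.57 CPM in the controls, from 78.74 to 96.91 CPM in let-7d (median 82.72) and from 73.81 to 91.17 CPM in let-7e (median 82.44). Controls 1, 3 and 4 stood above every let-7 library, and controls 2 and 6 among them. Its log2 fold changes were -0.20 (SE 0.108) with let-7d and -0.25 (SE 0.109, edgeR adjusted p = 0.443) with let-7e. Without control 1 these were -0.10 and -0.16. Ndufa5 (chromosome 6, bases 24518666 to 24528013) was at 85.99, 49.72, 61.66, 57.8 and 50.97 CPM in the controls, with let-7d from 36.94 to 61.15 CPM (median 47.3) and let-7e from 38.8 to 58.77 CPM (median 45.32). The groups overlapped, and its log2 fold changes of -0.32 (SE 0.161) and -0.33 (SE 0.164) became -0.17 and -0.17 without control 1.

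Subunit c of ATP synthase, the ring that turns in the membrane, is encoded by 3 genes, Atp5g1, Atp5g2 and Atp5g3, that yield the same mature protein. Atp5g3 made up 92.7% to 95.5% of their summed CPM per kilobase, Atp5g2 3.64% to 5.45% and Atp5g1 0.82% to 2.49%, where the long annotated transcript of Atp5g1 lowers its share. Atp5g1 (chromosome 11, bases 96068852 to 96075670) was at 36.72, 28.44, 60.56, 29.23 and 27.82 CPM in the controls, from 24.36 to 33.96 CPM in let-7d (median 28.51) and from 22.6 to 27.33 CPM in let-7e (median 26.16). Control 3 was the highest, and the 6 let-7e libraries all lay below the 5 controls, although let-7e 1 (27.33 CPM) and control 6 (27.82 CPM) were nearly level. It was the only member whose let-7e and control groups did not overlap, in a comparison where 0.383% of genes lay wholly lower and 0.249% wholly higher. Its edgeR log2 fold change was -0.53 (SE 0.187, adjusted p = 0.367), and -0.25 without control 3, the library with epididymis and smooth muscle transcripts. With let-7d it was -0.34 (SE 0.187). Atp5g3 and Atp5g2 had let-7e log2 fold changes of -0.04 (SE 0.186) and -0.20 (SE 0.152).

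The members with the most unlike patterns were the tissue variants of complex IV. Cox8b, a variant of Cox8a known from heart, skeletal muscle and brown fat (chromosome 7, bases 140898945 to 140900446), was at 70.64, 10.3, 15.4, 19.44 and 3.027 CPM in controls 1, 2, 3, 4 and 6. It ran from 5.83 to 12.54 CPM in let-7d (median 9.19) and from 5.827 to 16.31 CPM in let-7e (median 8.02). Control 1 stood far above every other library and control 6 below all of them. The edgeR log2 fold changes were -1.38 (SE 0.590, adjusted p = 0.473) with let-7d and -1.20 (SE 0.608, adjusted p = 0.501) with let-7e, and -0.40 and -0.21 without control 1. Cox8b held 1.01% to 13.1% of the summed level per kilobase of Cox8a and Cox8b, with a median of 2.85%.

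Markers of thermogenic fat did not all stand high with Cox8b in control 1. Of the 8 markers 7 were measured, and 3 of them were highest of the 17 libraries there. Cidea, a lipid droplet protein of brown fat, was at 38.84 CPM against 2.782 to 12.11 CPM elsewhere, Elovl3, a fatty acid elongase, at 2.406 CPM against 1.083 CPM or less, and Otop1 at 4.354 CPM against 3.571 CPM or less. The others were not: in control 1 Kcnk3 was at 96.42 CPM (106.3 CPM in control 4), Dio2 at 1.375 CPM (highest 3.867 CPM), Cpt1b at 0.344 CPM (highest 2.086 CPM) and Slc27a2 at 0.0573 CPM (highest 36.47 CPM). The mean log2 CPM of the 7 was 1.72 in control 1, 1.65 in let-7e 1 and 1.64 in let-7d 1, the library lowest in the subunits. These means are near each other although the single markers differ. The highest Slc27a2 value (36.47 CPM) was that of let-7d 1, where epithelium markers were also high. Kcnk3 was lowest of the 17 libraries there (20.51 CPM), and the other markers, Cidea (4.511 CPM) among them, lay between their extremes. Their summed level ran from 58.04 to 143.8 CPM in controls (highest in control 1), from 61.76 to 98.69 CPM in let-7d and from 44.25 to 106.4 CPM in let-7e. Ucp1, the defining gene, is not analysed here, and Elovl3 was at 0 in control 6 and let-7e 2. The mean log2 CPM of the 5 skeletal muscle markers measured (of 8) was lowest of the 17 libraries in control 1, at 0.45. Of these 5, Myh1, a fast myosin, was at 0 there and Tnnt3 at 0.172 CPM, whereas Actn3, at 3.724 CPM, stood near its highest value (4.106 CPM), and Acta1 (38.44 CPM) and Mylpf (1.146 CPM) lay within the range of the other libraries. The part of thermogenic fat cells in the level of Cox8b or of the other subunits in control 1 was not tested.

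Cox6b2, known as the testis form of subunit 6b (chromosome 7, bases 4751792 to 4753094), was at 3.495, 2.262, 4.799, 1.886 and 35.01 CPM in controls 1, 2, 3, 4 and 6. It ran from 1.669 to 4.336 CPM in let-7d (median 2.87) and from 1.579 to 3.008 CPM in let-7e (median 1.91). Control 6 alone was high, and the other 4 controls overlapped both let-7 groups. Its log2 fold changes, -1.64 (SE 0.675, edgeR adjusted p = 0.473) with let-7d and -2.18 (SE 0.666, edgeR adjusted p = 0.356) with let-7e, had the smallest p of any member, and were -0.03 and -0.57 without control 6. Control 6 is the library with spermatid transcripts: all 8 markers were high there, Prm2 for instance at 331.3 CPM, and the summed spermatid level was 1531 CPM there, no more than 70.74 CPM in let-7d and no more than 33.71 CPM in let-7e. Cox6b2 made up 17.3% of the summed level per kilobase of Cox6b1 and Cox6b2 in that library and a median of 1.05% over the 17. The part of spermatid RNA in it was not tested otherwise.

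Cox7a1, the heart and muscle form of subunit 7a that is also high in brown fat (chromosome 7, bases 30184144 to 30186078), was at 7.677, 6.257, 6.166, 5.294 and 3.068 CPM in the controls. It ran from 3.017 to 8.437 CPM in let-7d (median 5.90) and from 1.909 to 6.81 CPM in let-7e (median 4.37). The 3 groups overlapped widely. Its log2 fold changes were 0.16 (SE 0.329, edgeR adjusted p = 0.889) with let-7d, the largest of any member above 0, and -0.16 (SE 0.345, edgeR adjusted p = 0.904) with let-7e, a difference of -0.32 (SE 0.308) between the microRNAs. Cox7a1 held 3.12% to 10.7% of the summed level per kilobase of Cox7a1 and Cox7a2. Cox4i2, at 3.6 to 7.171 CPM in controls, 4.195 to 7.115 CPM in let-7d and 4.455 to 6.15 CPM in let-7e, had log2 fold changes of 0.007 (SE 0.194) and 0.11 (SE 0.196), and held 0.57% to 1.22% of the summed level of Cox4i1 and Cox4i2. The forms found in most tissues, Cox8a, Cox6b1, Cox7a2 and Cox6a1, followed the common pattern, with control 1 highest and let-7d 1 lowest.

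**Figure D5:**
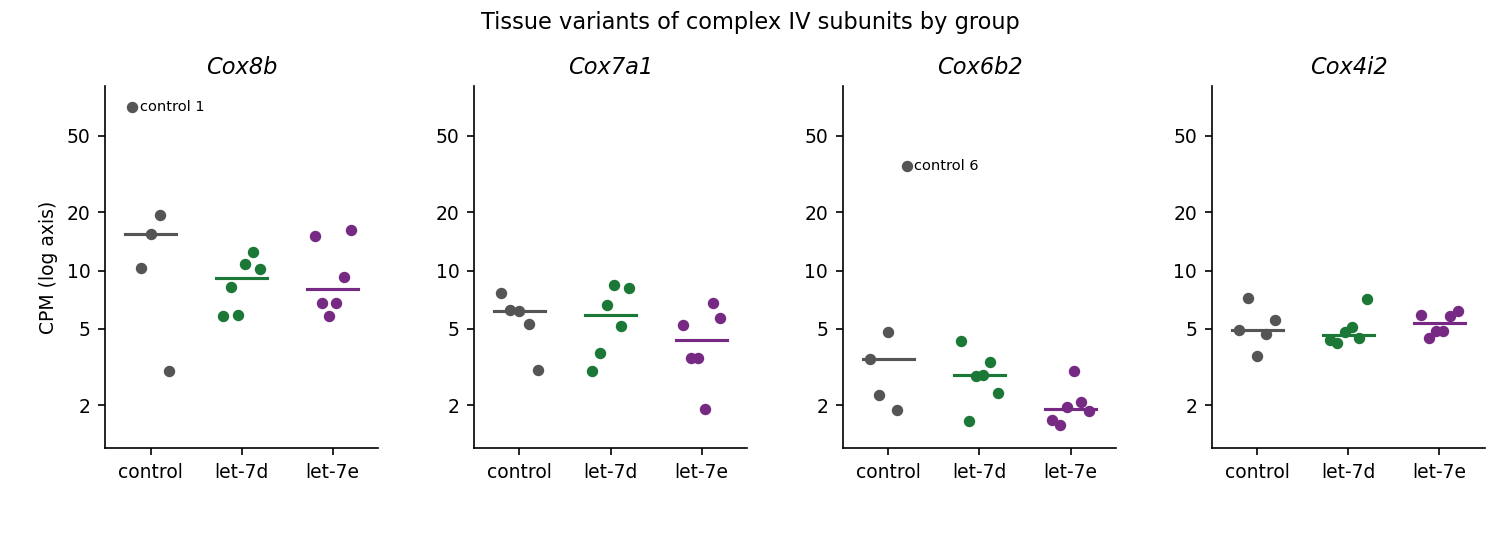
CPM of Cox8b, Cox7a1, Cox6b2 and Cox4i2 on a log axis by group; each point is a library and the bar is the group median. Cox8b in control 1 (70.64 CPM) and Cox6b2 in control 6 (35.01 CPM) stand apart from the other libraries, and the groups overlap in all 4 panels.

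Between let-7e and let-7d the members were spread about 0. Of the 82, 42 had a log2 fold change below 0 (51.2%) against 53.1% of all genes, with a median of -0.001 against -0.013. No member was called by edgeR, where 0 of 16452 genes (0%) were called. None had an unadjusted p under 0.05, against 1097 genes (6.67%). DESeq2 called 14 genes (0.115%), no member among them, and limma-voom 0. The medians were 0.008, 0.044, 0.027, -0.057 and -0.008 for complexes I to V. Within the late libraries 76 of 82 members were lower in let-7e, with a median of -0.108, and without the 4 libraries named above 67 of 82 (median -0.059). The balance near 0 depended on single libraries in both directions. Without let-7e 1, 69 of 82 were lower in let-7e (median -0.079), and without let-7d 1, 67 of 82 (median -0.057). Without let-7d 4, only 14 of 82 were lower (median 0.070), and without let-7e 3, 24 of 82 (median 0.032).

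The members of smallest p in this comparison were Cox7c and Ndufa11 on the lower side and Cox6a1 and Atp5b on the higher side. Cox7c, a small subunit of complex IV (chromosome 13, bases 86044816 to 86046904), ran from 39.46 to 71.6 CPM in let-7d (median 54.16) and from 39.64 to 67.98 CPM in let-7e (median 42.99). In let-7e, replicate 1 stood at 67.98 CPM and the other 5 at 43.74 CPM or less. The edgeR log2 fold change was -0.25 (SE 0.214, adjusted p = 0.886), and ran from -0.40 (without let-7e 1) to -0.175 (without let-7d 4) with 1 library left out. Ndufa11, a membrane-arm subunit of complex I (chromosome 17, bases 56717767 to 56722141), ran from 49.04 to 80.76 CPM in let-7d (median 60.46) and from 43.96 to 65.52 CPM in let-7e (median 51.4), a log2 fold change of -0.18 (SE 0.153) that was -0.28 without let-7e 1 and -0.10 without let-7d 4. Cox6a1 ran from 349.9 to 605.6 CPM in let-7d (median 447.2) and from 397.6 to 590.1 CPM in let-7e (median 500). The Cox6a1 groups overlapped, with a log2 fold change of 0.13 (SE 0.132) that was 0.05 without let-7e 1 and 0.20 without let-7d 4. Those of Atp5b overlapped too (0.13, SE 0.148), with 0.05 without let-7e 6 and 0.20 without let-7d 4. For 82 of 82 members the fitted difference between let-7e and let-7d was under 2-fold. No member's let-7e libraries lay wholly below or wholly above the let-7d libraries, as 0.103% and 0.134% of all genes did.

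Atp5l, subunit g of ATP synthase, was above 0 in both comparisons with control, with log2 fold changes of 0.06 (SE 0.113) with let-7d and 0.06 (SE 0.115) with let-7e, and below 0 with limma-voom in both. It stood at 41.59, 33.83, 35.03, 38.37 and 31.91 CPM in the controls, from 32.58 to 46.87 CPM in let-7d (median 36.28) and from 33.19 to 46.12 CPM in let-7e (median 36.63). The groups overlapped, and its 9 near-identical copies make its counts uncertain.

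Other genes of the pathway also stood highest in control 1. Assembly factors, which build the complexes without staying in them, were taken from a list of 46 of which 44 were measured. Their mean log2 CPM was highest in control 1 (4.81) and lowest in let-7d 1 (4.18), as for the subunits. With let-7d 30 of 44 were below 0 (median -0.069) and with let-7e 36 of 44 (median -0.074), against 57.5% and 58.1% of all genes. The smallest edgeR adjusted p-values were 0.461 and 0.409. At an unadjusted edgeR p under 0.05 there were 4 and 1 of 44, against 10.2% and 10.5% of all genes. Without control 1 the counts below 0 were 18 and 22 of 44, against 8884 and 8826 of 16452 genes. Without the 4 libraries named above they were 31 (median -0.072) and 42 (median -0.185), against 7975 and 7670 of 16452 genes. The 8 mitochondrially encoded messenger RNAs measured, of 13, were also highest in control 1, at a mean log2 CPM of 11.63. All 8 were below 0 with let-7d (median -0.317) and with let-7e (median -0.191), with smallest edgeR adjusted p-values of 0.576 and 0.644. Without control 1 these counts were 8 of 8 (median -0.111) and 2 of 8 (median 0.028), and without the 4 libraries 8 of 8 with either microRNA (medians -0.455 and -0.394). Their share of the counts was 5.40% in control 1, 2.69% in control 6 and between these in the other 15 libraries.

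The 10 regulators listed for this pathway, among them Nrf1, Gabpa, Esrra, the coactivator Ppargc1a and the mitochondrial transcription factor Tfam, followed the subunits in part. Their mean log2 CPM was 4.45 ± 0.103 (SD, n = 5) in controls, 4.41 ± 0.105 (SD, n = 6) in let-7d and 4.47 ± 0.117 (SD, n = 6) in let-7e, highest of the 17 libraries in let-7e 6 and lowest in let-7d 3. Control 1 and let-7d 1, the libraries at the extremes of the subunits, ranked 3 and 10 from the highest in this mean. Single regulators were at their highest in control 1 in 1 of 10 cases, near the share of all genes (10.28%). They were at their lowest in let-7d 1 in 4 of 10, against 14.82% of all genes. Polrmt, the mitochondrial RNA polymerase, had both, at 41.99 CPM in control 1 and 20.59 CPM in let-7d 1, and Tfb2m, its initiation factor, was at 19.88 CPM (highest 20.31 CPM, in control 4) and 13.89 CPM. Nrf1 stood at 19.99 CPM in control 1 and 19.10 CPM in let-7d 1. Ppargc1a stood at 4.182 CPM in control 1 and 12.48 CPM in let-7d 1, its highest value, in a library where epithelium markers were high. With let-7d 8 of 10 regulators were below 0 (7 without the 4 libraries) and with let-7e 6 of 10 (also 6). Of all genes 57.5% and 58.1% were below 0. The smallest edgeR adjusted p-values of the regulators were 0.564 and 0.600.

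Adipocyte content can be read beside these levels. The mean log2 CPM of the 10 adipocyte markers was lowest in let-7d 1 (10.35) and control 3 (10.35). It was 11.04 in control 1, the seventh highest of 17, and 11.25 in let-7d 4, the third highest. The library lowest in subunits was thus also lowest in this mean. Control 3, nearly level with it in this mean, ranked 6 from the highest of 17 in the subunits (mean log2 CPM 6.74). In control 1 the markers did not stand alike, so the middle rank of the mean does not describe them all. Lep was lowest of the 17 libraries there (248.3 CPM), Fabp4 was highest (20950 CPM), and Cd36 (4472 CPM) lay within its range. Pnpla2 (5048 CPM, highest 5112 CPM), Cidec (6012 CPM, highest 7217 CPM) and Slc2a4 (367.1 CPM, highest 443.9 CPM) stood near their highest values there. The part of adipocyte content in the level of the subunits was not tested.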

How the data were processed

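RNA was sequenced from 17 eWAT libraries of 3 groups. The deposited table holds whole read counts for each Ensembl gene, which the authors had filtered on CPM by the table's name; per the submitters' processing notes, reads were aligned with STAR to GRCm38.p6, and the counting tool is not given in the sources used here. A second deposited table was not used here. Symbols came from GENCODE M21 by stable identifier (16438 matched, 14 did not).

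Counts were tested in R 4.3.3 with edgeR 4.0.16 (TMM, quasi-likelihood test, two-sided) over all 17 libraries, with group and identifier series as terms; filterByExpr removed 0 genes and the common biological coefficient of variation was 0.36. P-values were adjusted by Benjamini-Hochberg over 16452 genes, with a threshold of 0.05. Group means and SDs do not account for the series term, and a prior count of 2 was added before taking log2 CPM. Libraries of 12717365 to 28972306 counts set the counting precision.

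Named members are the core members and tissue variants, the 2 of smallest unadjusted p in each direction per comparison (mean of at least 1 CPM), the highest and lowest per kilobase in each complex, and members whose groups do not overlap; 1 member enters every count over the 82 but is not reported here by name. Members, lists and alternatives were chosen with earlier results of these data known. The marker lists were those for adipocyte, thermogenic fat, skeletal and smooth muscle, epididymis and vas deferens, spermatid, epithelium, macrophage, endothelial and lymphocyte. Alternatives were DESeq2 1.42.0 (size factors alone or its Wald test), limma 3.58.1 (voom with quality weights), a mean of at least 5 CPM, no series term, late libraries only, the replicate block, leaving out 4 libraries or each in turn, and, added after seeing the data, a transcript length and GC trend. The model was tested on simulated counts.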

Additional observations from a re-analysis of the deposited data

Results flagged for a closer look

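Single libraries lay far from the others of their group in 7 of the 153 groups checked, where chance gives about 1 in 20 groups. The check used Dixon's criterion at the 95% level on log values, so it bears on log levels and not on plain CPM. It covered levels of named members, of the complexes, of the pathway lists and of the marker lists. Atp5l, subunit g of ATP synthase, stood at 46.12 CPM in let-7e 1 against 33.19 to 37.25 CPM in the other let-7e libraries. Cox7c, of complex IV, stood at 67.98 CPM in let-7e 1 against 39.64 to 43.74 CPM in the other let-7e libraries. Both genes have near-identical copies elsewhere in the genome. The other 5 were marker lists, in mean log2 CPM. In control 3 the smooth muscle list stood at 10.17 against 3.83 to 5.04 in the other controls, and the epididymis and vas deferens list at 8.16 against -0.74 or less. In control 6 the spermatid list stood at 7.48 against 0.33 or less, and the lymphocyte list at 2.54 against 0.65 to 1.08. In let-7e 6 the adipocyte list stood at 11.35, and the other 5 of that group at 10.95 to 11.08.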

How the results depend on the processing

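Under every alternative run, 0 members passed an edgeR, DESeq2 or limma-voom adjusted p of 0.05. The DESeq2 Wald test called 10, 15 and 14 genes for let-7d and for let-7e relative to control and for let-7e relative to let-7d, where edgeR and limma-voom called 0. Leaving out each library in turn, the median log2 fold change over all members ran from -0.192 to 0.016 for let-7d and from -0.160 to 0.028 for let-7e against control, and only leaving out control 1 put it above 0. Between let-7e and let-7d it ran from -0.079 to 0.070. With the transcript length and GC trend taken out, 73, 74 and 25 of 82 members were below 0 in the 3 comparisons, and with limma-voom 80, 81 and 63. The limma-voom medians over members were -0.183, -0.236 and -0.042. Its unadjusted p was under 0.05 for 18, 26 and 0 members, so the unadjusted counts depend on the tool. The members move together between libraries, so such counts are not independent.

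No label says whether a shared replicate number marks a litter or day. Same-numbered libraries deviated together (correlation over 0.1) in 1 of 5, 1 of 5 and 4 of 6 pairs. The 4 were pairs of let-7e and let-7d, among them replicates 1 (0.526) and 2 (0.234), which are also the early series. Pairing and series cannot be told apart for these. With the replicate block beside the series term, 32 of 82 members were below 0 with let-7d (median 0.022) and 33 with let-7e (median 0.020), and no member was called (0). The block gave let-7d log2 fold changes of 0.008 for Atp5b, 0.010 for Cox4i1, 0.064 for Cox5a and 0.102 for Cyc1. For let-7e it gave 0.035 for Atp5a1, 0.048 for Cox4i1, 0.024 for Cox5a, 0.140 for Cyc1, 0.067 for Sdhb and 0.012 for Uqcrc2.

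Other single members changed sign, and the cause was not tested. With let-7d, these were Cox5a (0.035) and Cyc1 (0.040) in the late libraries, Atp5l (-0.023) with limma-voom, Cox4i2 (-0.052 with no series term, -0.041 without the 4 libraries) and Cox6b2 (from -1.64 to 0.052 without the 4 libraries, control 6 among them). With let-7e, these were Cyc1 (0.006 with DESeq2 size factors or its test), Atp5l (-0.051 with limma-voom, -0.015 without the 4 libraries) and Atp5b (-0.167 with limma-voom, -0.057 with no series term, -0.025 in the late libraries, -0.149 without the 4 libraries).

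Leaving out each library in turn gave ranges that crossed 0 with let-7d for Atp5b (-0.202 to 0.004), Atp5l (-0.010 to 0.122), Cox4i2 (-0.133 to 0.153), Cox5a (-0.180 to 0.086), Cyc1 (-0.126 to 0.097), Sdhb (-0.184 to 0.012) and Uqcrc2 (-0.244 to 0.011). With let-7e they did so for Atp5a1 (-0.149 to 0.041), Atp5b (-0.089 to 0.136), Cox4i1 (-0.149 to 0.028), Cox5a (-0.174 to 0.045), Cox7a1 (-0.323 to 0.088), Cyc1 (-0.089 to 0.134), Ndufv1 (-0.163 to 0.002), Sdha (-0.226 to 0.032), Sdhb (-0.086 to 0.095), Uqcrc2 (-0.191 to 0.065) and Uqcrfs1 (-0.221 to 0.014). With let-7d they stayed below 0 for Cox4i1 (-0.223 to -0.017) and Uqcrfs1 (-0.288 to -0.054). Counting depth limits Cox6b2 and Cox7a1, with as few as 26 and 33 counts in a library.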
